A study of Sus scrofa with 3 samples.

Results

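Glycolysis and hypoxia genes were followed in cells labelled PIE cells, after 2 lactobacillus pretreatments. The label stands for a line of intestinal epithelial cells from a newborn pig, and the markers checked below do not bear out its epithelial part. The genes were 10 by name: the hypoxia regulator HIF1A, the secreted factors ADM and VEGFA, and the glycolytic enzyme genes HK1, HK2, HKDC1, PGK1, ENO1, PKM and LDHA. They were looked up by gene name on the array, among 5553 genes with a symbol, and 8 of the 10 had at least 1 probe. The choice of genes was made with earlier results of these data known. HK1 and ENO1 had no probe under those names and were not analysed here. PKM stands on the array under its earlier symbol PKM2. The 8 genes had 21 probes, 18 of them well above background on all 3 arrays by the scanner software's flag, and 7 genes had such a probe.

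Each of 3 groups was 1 culture on 1 array. The TL2937+ETEC group received Lactobacillus jensenii TL2937 for 48 h, and the TL2766+ETEC group received Lactobacillus plantarum TL2766 for 48 h. Both were then washed and exposed for 12 h to ETEC PAMPs, molecular patterns of enterotoxigenic Escherichia coli. The ETEC group received the PAMPs for 12 h without lactobacilli. All cells had grown for 3 days beforehand, all were exposed to the PAMPs, and neither unchallenged cells nor cells with lactobacilli alone were analysed here. With 1 culture per group no test and no standard error between cultures could be given, and differences below describe these 3 arrays.

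Cells split glucose to pyruvate by glycolysis, whose opening step, the phosphorylation of glucose, is made by hexokinases and whose end product, when oxygen is scarce, is turned to lactate by lactate dehydrogenase. Hypoxia-inducible factor, made of HIF1A and ARNT, binds DNA when oxygen is low and raises transcription of glycolytic enzymes, glucose carriers, VEGFA and ADM. HIF1A itself is controlled largely at the protein level: prolyl hydroxylases such as EGLN1 mark it for destruction when oxygen is present. An array of RNA therefore shows the transcripts of this system and not the factor's activity.

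The probes were DNA oligonucleotides of 60 bases, and the sequences below are copied from the scanner files. The first 30 bases are given for the probes that stand alone for the genes that differed, since the values of these genes rest on them, and for VEGFA probe 3. The VEGFA probes 1 and 2 are given whole because they bind different stretches of the transcript. The 3 HKDC1 probes are given whole because 2 of them share a run of 52 bases, shown in capitals, of which 1 was well above background on some arrays and the other on none. All are written 5′ to 3′.
HK2 probe 1, first 30 bases: catgtccaagtataatcctacaggatgagg
LDHA probe 1, first 30 bases: taaattggttcttgtaaaatagttctactt
ADM probe 1, first 30 bases: gcctcttggggaagaagaaaacaccatatc
VEGFA probe 1: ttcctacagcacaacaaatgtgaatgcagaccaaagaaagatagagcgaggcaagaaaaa
VEGFA probe 2: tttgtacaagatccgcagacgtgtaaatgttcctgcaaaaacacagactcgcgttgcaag
VEGFA probe 3, first 30 bases: atgttattggtgtcttcactggatgtattt
HKDC1 probe 1: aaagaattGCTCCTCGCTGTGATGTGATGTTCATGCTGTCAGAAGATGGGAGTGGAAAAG
HKDC1 probe 2: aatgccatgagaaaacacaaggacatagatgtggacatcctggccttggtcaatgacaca
HKDC1 probe 3: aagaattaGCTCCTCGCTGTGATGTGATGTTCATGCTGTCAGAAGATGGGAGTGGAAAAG

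Values are scaled intensities: the processed signal of a probe divided by its array's 75th percentile and multiplied by the geometric mean of the 3 percentiles (481). The percentile itself was 459 to 503 in intensity units, and 60.9% to 62.5% of gene spots per array were well above background. The lowest signals well above background were 11.55, 11.8 and 12.9 on the TL2937+ETEC, TL2766+ETEC and ETEC arrays. Spots printed repeatedly (27 probes, 5 spots each) gave the technical spread. The SD of their log2 difference had a median of 0.12 for TL2937+ETEC minus ETEC, with a maximum of 0.45. It was 0.082 for TL2766+ETEC minus ETEC, with a maximum of 0.70, and 0.095 between the lactobacillus arrays, with a maximum of 0.52. These spreads cover spots and not cultures. Probes of a gene are numbered from the brightest, and probe 1 stands for the gene in counts. Counts of higher and lower genes take a difference of 1.2-fold or more, in genes that passed the background flag on both arrays compared.

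The labelled cell type was checked against marker genes before the results. Of 6 epithelial markers with a probe, only the keratin gene KRT8 was well above background on all 3 arrays, at 18.0, 23.9 and 19.9 on the TL2937+ETEC, TL2766+ETEC and ETEC arrays. KRT18, CLDN4 and EPCAM, the epithelial adhesion molecule, were not well above background on any of the 3 arrays by their brightest probe, and none of the 18 EPCAM probes was so on all of them. Of 5 endothelial markers, 4 were well above background on all 3 arrays. PECAM1, an adhesion molecule of endothelial junctions and blood cells, read 84030, 85370 and 86700, and the endothelial cadherin gene CDH5 read 56580, 55880 and 60380, in the same array order. All 4 PECAM1 probes and both CDH5 probes were well above background on the 3 arrays. The summed scaled intensity of the 5 endothelial markers was 143800 and 144200 on the TL2937+ETEC and TL2766+ETEC arrays and 149000 on the ETEC array, and that of the 6 epithelial markers, undetected ones included, was 76.4, 74.2 and 81.5. Sums of different lists come from different probes and are read across arrays, not against each other. Of the other lists, all 3 fibroblast genes with a probe (summed 243000, 250000 and 267700), 2 of 3 smooth muscle genes (44120, 49630 and 56280) and 1 of 4 leukocyte genes (746, 756 and 648) were well above background on all 3 arrays, with sums in the same array order. FN1 alone made up 242900, 249900 and 267600 of the fibroblast sums. COL1A2 read 32.1, 28.5 and 41.9 and DCN 55.6, 57.0 and 59.1, and 4 of 5 DCN probes were well above background on no array. By the background flag, 5 of the 6 epithelial markers with a probe thus fell short on at least 1 array, and these probes do not bear out the epithelial label, and the cells are called PIE cells below.

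**Figure D1:**
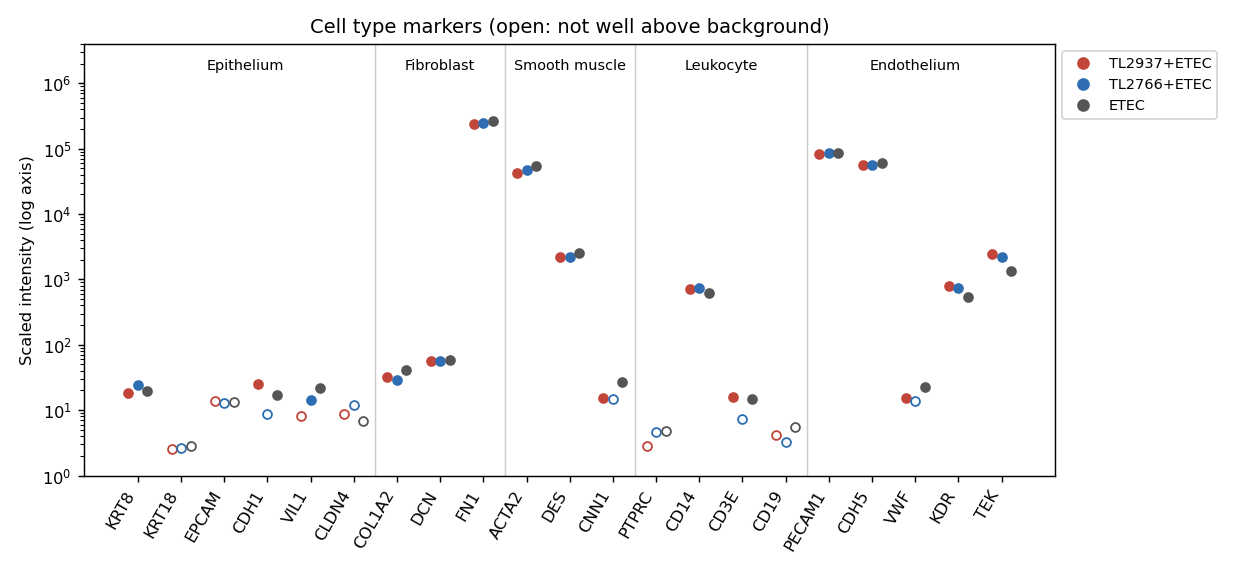
Scaled intensity (log axis) of the marker genes with a probe, by cell type, on the TL2937+ETEC, TL2766+ETEC and ETEC arrays. Filled points were well above background and open points were not. PECAM1 and CDH5 lie at 55880 or more on all 3 arrays, while the epithelial markers lie near the lowest detected signals.

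HIF1A, which encodes the oxygen-regulated subunit of hypoxia-inducible factor, hardly differed between the arrays. Probe 1 read 7651 on the TL2937+ETEC array, 8829 on the TL2766+ETEC array and 8023 on the ETEC array. Probe 2 read 4186, 4438 and 4218 on the same arrays. The TL2766+ETEC array was the brightest for both probes and the TL2937+ETEC array the dimmest. Against ETEC, HIF1A differed by a log2 value of -0.068 in TL2937+ETEC cells and of 0.14 in TL2766+ETEC cells, both within 1.2-fold.

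ADM encodes adrenomedullin, a secreted peptide that widens vessels and tightens the endothelial barrier. Its signal was 9199 in TL2937+ETEC cells and 9280 in TL2766+ETEC cells, against 16250 in ETEC cells. Both lactobacillus arrays thus lay well below the ETEC array and differed from each other by a log2 value of only -0.013. The log2 difference from ETEC was -0.82 in TL2937+ETEC cells (1.77-fold lower) and -0.81 in TL2766+ETEC cells (1.75-fold lower). Both exceeded the widest spot SD of their comparison. LDHA in TL2937+ETEC cells and VEGFA in TL2766+ETEC cells, given below, exceeded the median spot SD but not the widest. HK2 in TL2937+ETEC cells, also given below, exceeded the widest spot SD, but on dim signals. With another background correction its log2 difference was -0.446, beside 0.447 for the widest spot SD, which was not recomputed. Of 4267 genes measured in the first comparison 29 lay lower than ADM, and of 4243 in the second 21 did. The probe was bright. Among genes with a mean scaled intensity of 10000 or more, 1.16% were at least 1.5-fold lower in TL2937+ETEC cells (688 genes) and 0.576% in TL2766+ETEC cells (695 genes). Both comparisons share the ETEC array, so they are not independent, and ADM had 1 probe.

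Adrenomedullin acts through the receptor CALCRL together with a RAMP protein. CALCRL probe 1 read 373, 352 and 349 on the TL2937+ETEC, TL2766+ETEC and ETEC arrays, and RAMP2, its usual endothelial partner, read 9416, 8884 and 8808. Both genes were within 1.2-fold of ETEC in both comparisons. RAMP3, the alternative partner, was lower, at 55.0 and 50.3 in TL2937+ETEC and TL2766+ETEC cells, against 69.0 in ETEC cells. Its log2 differences were -0.33 and -0.46.

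VEGFA encodes the vascular endothelial growth factor, a hypoxia target that acts on endothelial receptors. Probe 1 read 1716 in TL2937+ETEC cells and 2265 in TL2766+ETEC cells, against 1696 in ETEC cells. Probe 2 read 318.5 and 361 on the lactobacillus arrays, against 278, and probe 3 read 263 and 347.5, against 271. The TL2766+ETEC array was the brightest for every one of the 3 probes. In TL2766+ETEC cells the log2 differences from ETEC were 0.42, 0.38 and 0.36 for probes 1, 2 and 3, that is 1.34-, 1.30- and 1.28-fold higher. In TL2937+ETEC cells they were 0.017, 0.20 and -0.043, within 1.2-fold and of mixed sign. Between the lactobacillus arrays the difference, TL2937+ETEC minus TL2766+ETEC, was -0.40 for probes 1 and 3 and -0.18 for probe 2.

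The receptors of VEGFA were measured as well. KDR, the main signalling receptor, read 797.9 in TL2937+ETEC cells and 752.5 in TL2766+ETEC cells, against 532 in ETEC cells by probe 1. Its second probe read 309 and 274, against 198. The log2 differences from ETEC were 0.58 and 0.64 by the 2 probes in TL2937+ETEC cells and 0.50 and 0.47 in TL2766+ETEC cells. KDR is also one of the 5 endothelial markers. Of the others, TEK read 2419 and 2189 in lactobacillus-treated cells, against 1340, while PECAM1 and CDH5 lay within 1.2-fold in both comparisons. VWF read 15.5 in TL2937+ETEC cells, against 22.7 in ETEC cells, a log2 difference of -0.55, and at 13.8 was not well above background in TL2766+ETEC cells. The part of the cells' makeup in these values was not tested, and in bulk cultures more cells of a type cannot be told apart from more RNA per cell. FLT1, the other receptor, had 3 probes, and all 3 were above 0 in both comparisons, with median log2 differences of 0.38 and 0.27, although probe 1 stayed within 1.2-fold, at 0.17 and 0.25. FLT1 lies outside the rule for named genes and was chosen after its values were seen.

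HK2 encodes the inducible hexokinase, which phosphorylates glucose in the first step of glycolysis. Its probe read 15.7 in TL2937+ETEC cells and 23.1 in TL2766+ETEC cells, against 25.4 in ETEC cells. The TL2937+ETEC value stood apart from the other arrays, and the TL2766+ETEC value lay near ETEC. The log2 difference from ETEC was -0.70 in TL2937+ETEC cells (1.62-fold lower) and -0.14 in TL2766+ETEC cells. All these readings were close to the lowest signals well above background. Among the 854 genes with a mean scaled intensity under 100 in the first comparison, 24.6% were at least 1.2-fold lower in TL2937+ETEC cells and 5.27% at least 1.5-fold lower. With another background correction (normexp) the HK2 differences from ETEC were -0.45 and -0.40, so that the gap between the lactobacillus arrays was -0.048 in place of -0.56.

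HKDC1, a further hexokinase gene, was not well above background on all 3 arrays by any probe. Its probe 1 read 16.7 and 37.3 on the TL2937+ETEC and TL2766+ETEC arrays, both well above background, against 10.0 on the ETEC array, which was not. The lactobacillus readings were 1.29-fold and 2.90-fold the lowest detected ETEC signal. Probes 2 and 3, given next, read above that signal on the ETEC array and still failed the flag. These ratios are therefore not lower bounds. Probe 1 ranks first through its TL2766+ETEC reading, and on the ETEC array it was the dimmest of the 3. Probe 3, which has the same 52-base run shown in capitals above, read 8.75 and 5.36 on the lactobacillus arrays, against 15.2 on the ETEC array, and was not well above background on any of them. Probe 2 read 13.9 and 14.8, against 17.9, and was not well above background on any array either. Between the lactobacillus arrays, where probe 1 was measured on both, its log2 difference was -1.16, and -0.44 with normexp. HKDC1 thus rests on probe 1, on 2 of the 3 arrays, and no other probe measured it. The undetected readings of probe 3 ran opposite to probe 1 in each comparison, and those of probe 2 did so against ETEC.

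PGK1 encodes phosphoglycerate kinase, which makes ATP in the later steps of glycolysis. Probe 1 read 61780 and 65500 in TL2937+ETEC and TL2766+ETEC cells, against 67960 in ETEC cells. The 6 probes gave log2 differences from ETEC of -0.23 to -0.065 in TL2937+ETEC cells and of -0.11 to 0.097 in TL2766+ETEC cells. Every probe was below 0 in the first comparison, and every value in both comparisons was within 1.2-fold. Probes 3 and 4 share a run of 24 bases, so they are not independent.

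PKM encodes pyruvate kinase, which makes pyruvate in the last step of glycolysis. Probe 1 read 15370 and 15680 in TL2937+ETEC and TL2766+ETEC cells, against 16450 in ETEC cells. Probe 2 read 8662 and 8744, against 8287, and probe 3 read 2307 and 2571, against 2317. The 4 probes spanned log2 differences of -0.098 to 0.23 in TL2937+ETEC cells and of -0.069 to 0.28 in TL2766+ETEC cells. Probes 1 and 2 thus had opposite signs, and with the mean of the probes in place of probe 1 PKM was at 0.049 and 0.11. Probe 4, the dimmest, was the only one past 1.2-fold in either comparison, at 90.1 in TL2766+ETEC cells against 74.2 in ETEC cells.

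LDHA encodes the lactate dehydrogenase subunit that favours the making of lactate. Its probe read 17700 in TL2937+ETEC cells and 24420 in TL2766+ETEC cells, against 23100 in ETEC cells. The TL2937+ETEC array was the low one, and the others were within 1.2-fold of each other. The log2 difference from ETEC was -0.38 in TL2937+ETEC cells (1.31-fold lower) and 0.080 in TL2766+ETEC cells, and the lactobacillus arrays differed by -0.46. Among genes with a mean scaled intensity of 10000 or more, 11.9% were at least 1.2-fold lower in TL2937+ETEC cells. LDHB, the subunit that favours the reverse reaction, differed by -0.017 and 0.075 from ETEC by its brightest probe. LDHB was chosen after its values were seen.

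**Figure D2:**
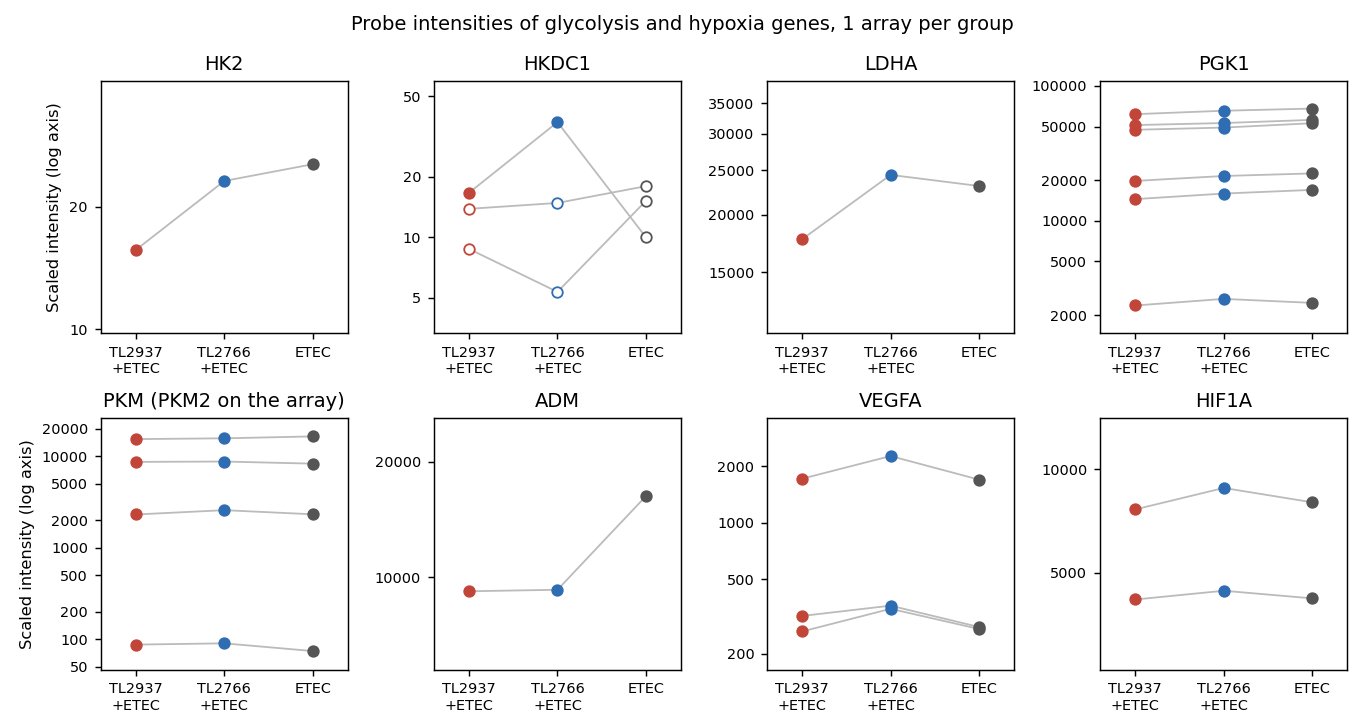
Scaled intensity (log axis) of every probe of the 8 genes on the TL2937+ETEC, TL2766+ETEC and ETEC arrays, with a line joining the values of 1 probe. Filled points were well above background and open points were not. ADM is lower on both lactobacillus arrays, at 9199 and 9280 against 16250, while HKDC1 has filled points for 1 probe on the lactobacillus arrays alone.

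Read as a list, 3 of the 7 measured genes (HK2, LDHA and ADM) were lower in TL2937+ETEC than in ETEC cells, 0 were higher and 4 were within 1.2-fold. The genes were chosen with earlier results of these data known, so the shares of all genes are no independent yardstick. Of all 4267 genes measured in this comparison, 12.6% were lower and 7.19% higher. The median log2 difference was -0.14 for the 7 genes and -0.042 for all genes. In TL2766+ETEC cells, 1 of the 7 genes (ADM) was lower, 1 (VEGFA) was higher and 5 were within 1.2-fold. Of all 4243 genes, 8.89% were lower and 7.97% higher, and the medians were -0.053 for the 7 genes and -0.0010 for all genes. Between the lactobacillus arrays, 4 of 8 measured genes (HK2, HKDC1, LDHA and VEGFA) were lower in TL2937+ETEC than in TL2766+ETEC cells and 0 were higher. Here 7.27% of all 4277 genes were lower and 4.3% higher, and the medians were -0.30 for the 8 genes and -0.044 for all genes. HKDC1 and HK2 in that count rest on signals near background. HKDC1 enters by probe 1, which ranks first through its TL2766+ETEC reading, so the choice of probe favours that direction. With normexp the HK2 difference between these arrays was -0.048. With both arrays above the median detected signal, which leaves out HK2 and HKDC1, the median was -0.15. At 1.5-fold, HK2 and ADM were lower in TL2937+ETEC than in ETEC cells, as were 2.23% of all genes. ADM was also lower in TL2766+ETEC cells, as were 1.46%. HK2 lies near background. Among genes under a mean scaled intensity of 100 the TL2937+ETEC share was 5.27%, and 24.6% at 1.2-fold. With normexp HK2 was at -0.45 in TL2937+ETEC cells, short of 1.5-fold. Between the lactobacillus arrays HKDC1 alone was past 1.5-fold, and past 2-fold, by probe 1. With normexp its log2 difference was -0.44, past neither. In the main processing 1.05% of all genes were at least 1.5-fold lower and 0.397% higher between these arrays. At 2-fold 0.21% were lower and 0.0701% higher. None of the 7 genes differed 2-fold from ETEC, where 0.281% of all genes were that much higher and 0.117% lower in TL2937+ETEC cells, and 0.377% higher and 0.212% lower in TL2766+ETEC cells.

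**Figure D3:**
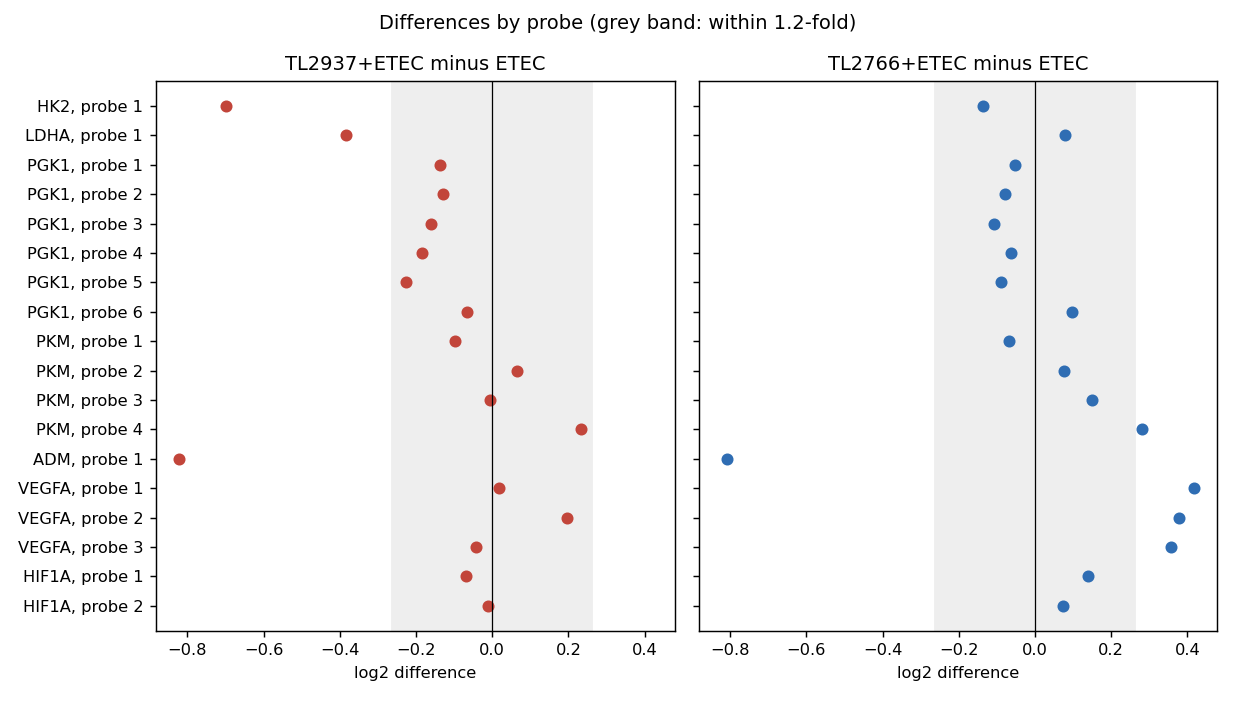
log2 difference from ETEC of each of the 18 probes well above background on all arrays, in TL2937+ETEC cells (left) and TL2766+ETEC cells (right). The grey band marks differences within 1.2-fold. ADM lies at -0.82 and -0.81, and the 3 VEGFA probes lie outside the band only on the right, at 0.36 to 0.42.

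Other genes of the pathway came from 2 lists, given here without the genes above. The lists too were chosen with earlier results of these data known. The glycolysis and lactate list held 41 such genes, of which 26 had a probe. In TL2937+ETEC cells, 2 of the 22 measured were lower than in ETEC cells, 2 were higher and 18 were within 1.2-fold, with a median log2 difference of -0.0016. In TL2766+ETEC cells, 2 of 23 were lower, 2 were higher and 19 were within 1.2-fold, with a median of 0.040. Among all genes, 12.6% were lower and 7.19% higher in TL2937+ETEC cells, and 8.89% lower and 7.97% higher in TL2766+ETEC cells.

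Among enzymes of this list, GAPDH read 362300 and 366500 in TL2937+ETEC and TL2766+ETEC cells, against 400900 in ETEC cells, within 1.2-fold. PFKM, a phosphofructokinase, read 1461 and 1386, against 1714, and its log2 differences were -0.23 and -0.31. Its other probe gave -0.015 and -0.041. Hence PFKM was lower in TL2766+ETEC cells by 1 of its 2 probes.

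Pyruvate dehydrogenase kinases keep pyruvate out of mitochondrial oxidation, and 3 of them fall under the rule for named genes. These kinases, PFKM, SLC2A3 and SLC2A4 were named for the size of their differences in these data. PDK1, a hypoxia target, read 1084 and 1263 in TL2937+ETEC and TL2766+ETEC cells, against 1438 in ETEC cells. Its log2 differences were -0.41 and -0.19, and both probes were below 0 in both comparisons. PDK4, which is raised in fasting and by lipid signals, went the other way, at 954 and 828 against 675. Of its 9 probes, 8 were above 0 in each comparison, with medians of 0.50 and 0.33, while the dimmest gave -1.07 and -0.96. PDK2 read 29.6 and 23.9, against 23.3, near the lowest detected signals.

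Of the carriers, SLC2A1, the main glucose importer of most cultured cells, read 862.5 and 1058, against 980 in ETEC cells, and was within 1.2-fold in both comparisons. SLC2A3, a high-affinity glucose carrier, read 53.5 and 64.6, against 49.5, so it was higher in TL2766+ETEC cells, at a log2 difference of 0.38. SLC2A4, the insulin-regulated carrier, read 79.6 and 96.4, against 100.7, and was lower in TL2937+ETEC cells, at -0.34, by the 1 of its 4 probes that was well above background on all arrays. SLC16A1 carries lactate across the membrane. All 7 of its probes were above 0 in both comparisons, with medians of 0.25 and 0.24, although probe 1 stayed within 1.2-fold.

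The hypoxia list held 44 further genes, of which 32 had a probe and 29 were measured. It was not limited to genes raised by hypoxia. Regulators such as CITED2 and HIF1AN and receptor genes such as KDR, NRP1, CALCRL and RAMP3 were in it. The genes counted as higher than ETEC were KDR and NRP1 in both comparisons. In TL2937+ETEC cells, 9 of the 29 were lower than in ETEC cells, 2 were higher and 18 were within 1.2-fold, beside 12.6% lower and 7.19% higher among all genes. The median log2 difference was -0.14, against -0.042 for all genes. In TL2766+ETEC cells, 5 were lower, 2 were higher and 22 were within 1.2-fold, beside 8.89% lower and 7.97% higher among all genes. The median was -0.042, against -0.0010 for all genes. Between the lactobacillus arrays all 29 were within 1.2-fold, as were 3782 of all 4277 genes, and the median was -0.088, against -0.044 for all genes.

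Several named members of this list were lower on both lactobacillus arrays. ANGPTL4, P4HA1, LOX and STC2, like KDR and RAMP3, were named for the size of their differences in these data. Both comparisons share the ETEC array, so they are not independent. ANGPTL4, a secreted inhibitor of lipoprotein lipase, read 1433 and 1632 in TL2937+ETEC and TL2766+ETEC cells, against 2125 in ETEC cells, and its log2 differences were -0.57 and -0.38. All 3 of its probes were below 0 in both comparisons. P4HA1, a collagen prolyl hydroxylase, read 5012 and 5339, against 7098, with differences of -0.50 and -0.41. Of its 8 probes, 7 were below 0 in both comparisons, and the dimmest, at 45.0 and 43.3 against 41.1, was above 0.

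LOX, which cross-links collagen, read 36350 and 39990 in TL2937+ETEC and TL2766+ETEC cells, against 50210 in ETEC cells. Its log2 differences were -0.47 and -0.33. STC2, a secreted glycoprotein, read 148 and 152, against 196.5, with differences of -0.41 and -0.37. Both genes had 1 probe, and both lactobacillus arrays were below the ETEC array.

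Of the regulators of HIF1A, ARNT and EGLN1 were within 1.2-fold in both comparisons. ARNT, the partner subunit, read 642 and 621 in TL2937+ETEC and TL2766+ETEC cells, against 560.5 in ETEC cells. EGLN1, the main HIF prolyl hydroxylase, read 4275 and 4897, against 4741. EGLN3, a hydroxylase that is itself raised by hypoxia, was not well above background on any of the 3 arrays.

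**Figure D4:**
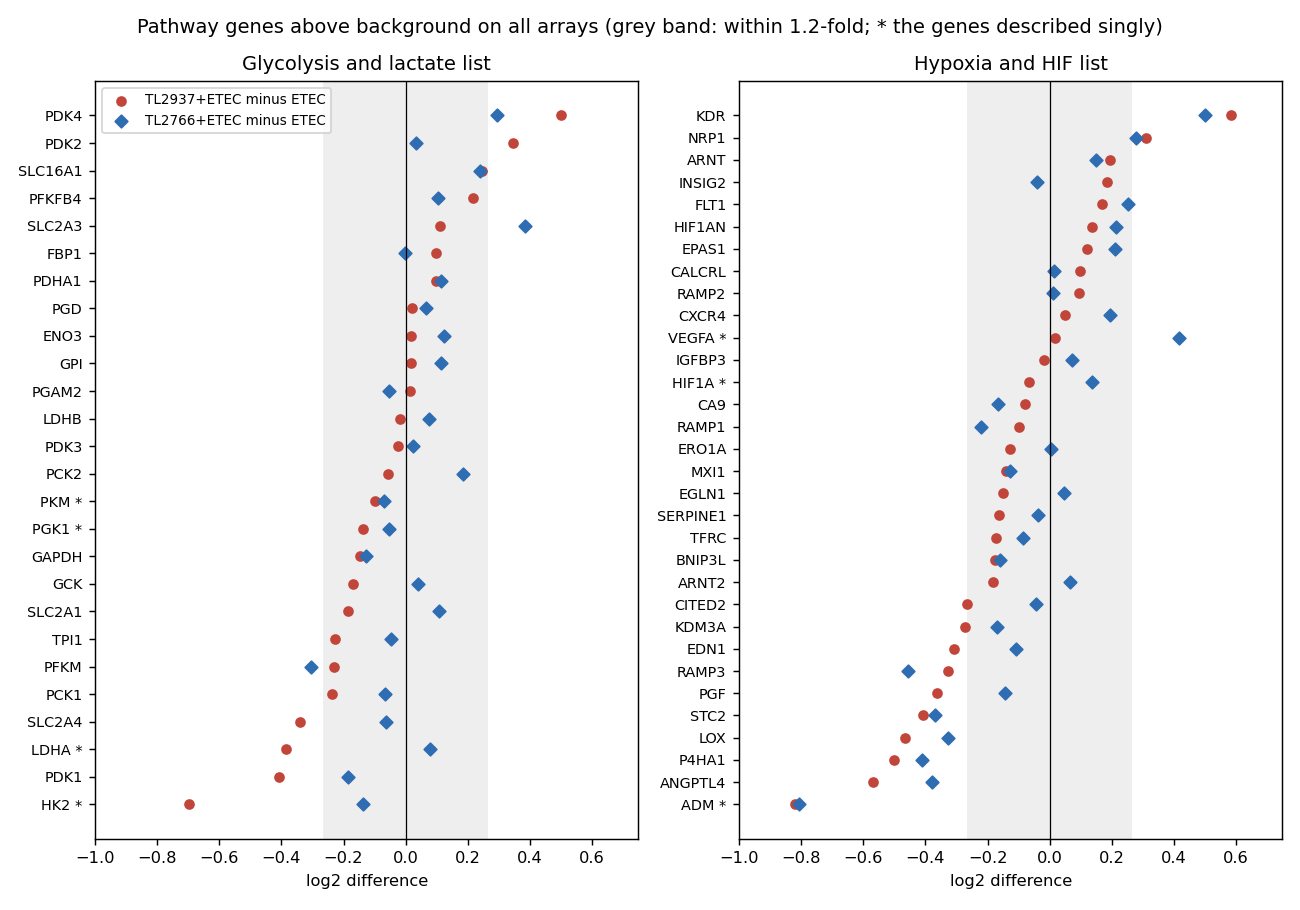
log2 differences from ETEC of the genes of both lists that were well above background on all 3 arrays, for TL2937+ETEC (circles) and TL2766+ETEC (diamonds). Stars mark the genes of the main set and the grey band marks differences within 1.2-fold. ADM, ANGPTL4, P4HA1, LOX, STC2 and RAMP3 lie left of the band in both comparisons, and KDR, PDK4 and NRP1 lie right of it.

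The genes most like HK2 and ADM were sought over the 3 arrays, by the distance between their pairs of log2 differences from ETEC, among 4219 genes well above background on all of them. Nearest to HK2 were OXTR at a distance of 0.049, KLC2 at 0.054 and CXCL9 at 0.067. CXCL9, a chemokine, read 1826 and 2665 in TL2937+ETEC and TL2766+ETEC cells, against 2852 in ETEC cells. Nearest to ADM were HTR1B at 0.0024, PLN at 0.027 and CCDC13 at 0.061. PLN, the inhibitor of the calcium pump of muscle, read 268 and 277, against 483. With 3 arrays such a likeness is 2 numbers per gene and is given as a description.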

How the data were processed

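RNA of 3 PIE cultures was measured on 1-colour (Cy3) Agilent porcine arrays. Per the file headers, the deposited processed intensity was made by Feature Extraction 10.7.3.1 (Agilent) with its spatial and multiplicative detrending switched on, array by array. Mean and local background intensities, per the file headers, precede subtraction. The authors' value table holds the processed intensity, rounded, on a linear scale.

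Here the log2 processed intensity had its array's 75th percentile subtracted, without control and outlier spots (9, 4 and 8 on the TL2937+ETEC, TL2766+ETEC and ETEC arrays). None was saturated. Repeated spots were averaged per probe, and the brightest probe stood for a gene. Of 43603 probes, 12108 had 1 symbol (9672 by the array's current symbol, 2113 by accession through RefSeq genes (Sscrofa11.1), 72 by synonym, 247 by the array's name alone and 4 as PKM2), 5 matched several genes and 31490 had none.

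All 3 arrays lay on 1 slide, so culture, array position and group cannot be told apart. Members and lists were chosen with earlier results of these data known. Named were all members, up to 6 further genes of each list by size of difference, and 8 fixed genes. Steps were tested on simulated data, with the same noise at every signal and the same change in every probe of a gene. Dim signals and probes of a gene that differ were thus not covered. Alternatives covered background, scaling, probe choice, filters and threshold. Python 3.11.15 (pandas 2.3.3, numpy 2.4.6) and R 4.3.3 (limma 3.58.1) were used.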

Additional observations from a re-analysis of the deposited data

How the results depend on the processing

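The 10 processing alternatives were run beside a stricter threshold for counts. The ADM differences from ETEC ranged from -0.83 to -0.77 in TL2937+ETEC cells and from -0.81 to -0.79 in TL2766+ETEC cells, LDHA in TL2937+ETEC cells from -0.40 to -0.32, and VEGFA in TL2766+ETEC cells from 0.38 to 0.43. PKM, within 1.2-fold, changed sign with the mean of a gene's probes, to 0.049 and 0.11. No difference of at least 1.2-fold among the 8 genes changed sign where it was rerun. Single genes were followed over 9 settings, the main one included, and HKDC1 against ETEC was not rerun. The mean of a gene's probes could not change HK2, LDHA, ADM or HKDC1, each with only 1 probe measured. Without a background filter, where HKDC1 enters, 1 gene was higher in TL2937+ETEC than in ETEC cells and 2 in TL2766+ETEC cells. At 1.5-fold, 0 genes were higher in TL2766+ETEC cells, and with the normexp correction 2 were lower there, HK2 with ADM. With the mean of a gene's probes the TL2766+ETEC median was 0.080. Between the lactobacillus arrays the median was -0.15 with normexp and -0.15 with both arrays above the median detected signal, which leaves out HK2 and HKDC1. Without PKM, an alternative added after seeing the data, the TL2937+ETEC median was -0.26. With all genes kept and the 10 other settings that median ran from -0.16 with normexp to -0.061 with cyclic loess, and was -0.070 with quantile normalization. The pathway lists were rerun with the 8 genes kept in, not on the lists the report gives. So counted, the glycolysis median was -0.041 in TL2937+ETEC cells (-0.089 to 0.0070) and 0.034 in TL2766+ETEC cells (-0.0035 to 0.075), and the hypoxia median -0.13 (-0.15 to -0.086) and -0.040 (-0.059 to 0.0031), so 3 of these 4 medians changed sign under some alternative. No paired analysis was possible because each group had 1 array. Signal over background limits HK2 and HKDC1.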

Other observations

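Some genes of the lists that the naming rule passed over were chosen after their values were seen. TPI1, the triosephosphate isomerase of glycolysis, had 5 probes, all below 0 in TL2937+ETEC against ETEC cells, with a median log2 difference of -0.23. In TL2766+ETEC cells 4 of the 5 were below 0, with a median of -0.048. All 12 LDHB probes were above 0 in TL2766+ETEC against ETEC cells, with a median of 0.15, and 8 of the 12 were above 0 in TL2937+ETEC cells, with a median of 0.038.

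SLC16A3, the lactate exporter of glycolytic cells, read 15.8 on the TL2766+ETEC array, against 23.9 on the ETEC array, a log2 difference of -0.60. Its TL2937+ETEC reading of 13.9 was not well above background, although it exceeded the lowest detected signal there (11.55). The ETEC reading was 1.72-fold this undetected reading, and that ratio is not a lower bound. The SLC16A3 readings all lay near the lowest detected signals. EPO, the hypoxia-regulated hormone of red cell formation, was well above background on the TL2766+ETEC array alone, at 44.6. That was 3.47-fold the lowest detected signal of the ETEC array, where EPO read 2.65. The EPO ratio is not a lower bound either, since readings above the lowest detected signal could still fail the flag. Each of these genes had 1 probe.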
